A study of Homo sapiens with 1 sample.

Results

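The cluster of miR-183, miR-96 and miR-182 was described on 1 microarray through its 6 mature miRNAs, which are hsa-miR-183-5p, hsa-miR-183-3p, hsa-miR-96-5p, hsa-miR-96-3p, hsa-miR-182-5p and hsa-miR-182-3p. The cells were DLD-1, an established line from a human colorectal carcinoma. The members were chosen by name, as the non-control spots whose miRNA name was one of these 6. No measured value entered this rule, but earlier results of these data were known when it was set. They are 6 of the 2549 human miRNAs on the array. The cells had been transfected with an empty negative control plasmid (pLVX-NC), and were grown in RPMI medium with fetal bovine serum. The study asked how miRNA levels respond to circLONP2, a circular RNA, but the array of cells overexpressing it was not analysed here. The data therefore give levels in 1 culture and 1 condition, with no replicate, and no difference between conditions was tested.

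The 3 miRNAs of this cluster are cut from a shared primary transcript. Drosha and DGCR8 release each hairpin from it, and Dicer then leaves a short duplex of a 5p and a 3p arm, of which usually 1 is kept in Argonaute as the guide. The 5p arm is the known guide for all 3 hairpins, and the cluster is best known from sensory organs, where changes in the miR-96 seed cause hereditary hearing loss. In colorectal and other carcinomas these miRNAs have been widely studied as promoters of growth, with FOXO transcription factors among the targets of miR-96 and miR-182, and EGR1 among those of miR-183.

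The sequences are shown because the 3 guide arms are alike at their 5′ ends while their 3p arms are not, and the brightness of the arms turned out very unequal. They are mature sequences from RefSeq (GRCh38.p14), 5′ to 3′, with the seed (bases 2 to 8, which pairs with target transcripts) in capitals.
miR-183-5p: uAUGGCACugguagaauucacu
miR-96-5p: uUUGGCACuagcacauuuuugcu
miR-182-5p: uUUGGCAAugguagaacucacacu
miR-183-3p: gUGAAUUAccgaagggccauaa
miR-96-3p: aAUCAUGUgcagugccaauaug
miR-182-3p: uGGUUCUAgacuugccaacua

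Counted from 1 at the 5′ end, the seed of miR-96-5p differs from that of miR-183-5p by U2A and from that of miR-182-5p by C8A. No 2 of the 6 members share a whole seed. Over the whole length, miR-183-5p and miR-182-5p are the closest pair, with 18 of 22 positions identical and a common run of 8 bases that starts at position 9. miR-96-5p matches miR-183-5p at 13 of 22 positions and miR-182-5p at 12 of 23. All 6 arms lie on the minus strand at chr7:129770406-129774988, a span of 4583 bases, within the miRNA genes MIR183, MIR96 and MIR182. The nearest protein-coding genes on the 2 sides of the span are NRF1 and UBE2H. In the direction of transcription miR-183 comes first (miR-183-5p at chr7:129774967-129774988 and miR-183-3p at chr7:129774928-129774949). The miR-96 arms follow 166 bases further on (miR-96-5p at chr7:129774739-129774761 and miR-96-3p at chr7:129774697-129774718), and 4226 bases separate these from the miR-182 arms (miR-182-5p at chr7:129770447-129770470 and miR-182-3p at chr7:129770406-129770426).

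Brightness below is that of a spot after the scanner software had subtracted its own background estimate, on a linear scale. That estimate was not the local background alone. For example, a miR-183-5p spot with a median signal of 19.5 over a local background of 12 had a brightness of -1.29. Each member had 20 spots, carried by 2 probes for miR-96-5p and by 4 for each of the others, 22 probes and 120 spots in all. Spots marked as outliers by the software were left out, and no spot of the array was saturated. The spots are technical repeats on 1 array, so an SD over them covers error within the array alone, and the number of arrays limits the precision. Of 1000 negative control spots, 99% lay below 12.5, and the dimmest detected probe of any human miRNA had a brightness of 13.7. The software marked the labelling and the hybridization spike-in signals of the array as out of range, and their part in the values below was not tested. Of the epithelial miRNAs of the miR-200 family, 5 of 5 were detected, with total signals from 4.86 (miR-200a-3p) to 1112 (miR-141-3p). Of 4 intestinal epithelial miRNAs, miR-215-5p and miR-375 were detected, while miR-192-5p and miR-194-5p were not. Among miRNAs of other lineages, 2 of 5 of blood, 2 of 3 of muscle, 1 of 2 of brain, 1 of 2 of mesenchyme and 0 of 1 of liver were detected. Their total signals ran up to 28.4, for miR-124-3p, a brain miRNA. Over all human miRNAs on the array, 56.8% were detected. These markers are named after their values were seen, and their part in the results was not tested.

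Of the 6 members, 2 were detected, and both came from the miR-183 hairpin. The software's flag for a detected miRNA was used, which 56.8% of the human miRNAs on the array carried. The 3p arm of miR-183, the arm not known as the guide, was among the brighter human miRNAs. Its guide arm was dim. Neither arm of miR-96 and neither arm of miR-182 was detected. The plot of all spots by probe shows these 3 levels.

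**Figure D1:**
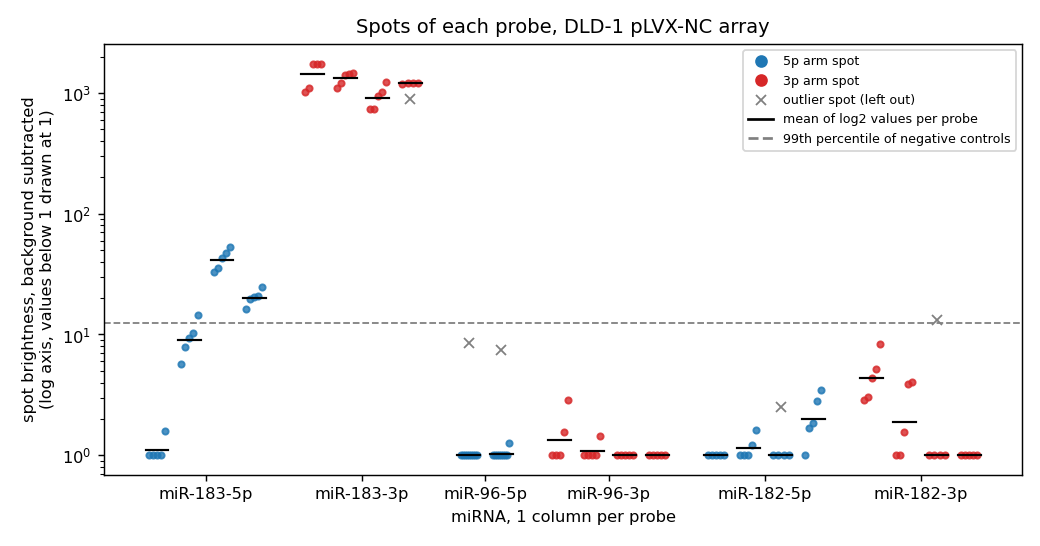
Brightness of every spot (y axis, log scale, values below 1 drawn at 1) for the probes of the 6 members (x axis, 1 column per probe, spots spread sideways in order of brightness). Blue marks 5p arms, red 3p arms, grey crosses outlier spots that were left out, black bars the mean of the log2 values of a probe, and the dashed line the level that 99% of negative controls stay below (12.5). The spots of miR-183-3p lie between 732 and 1756, those of miR-183-5p between -1.29 and 52.7, and the spots used for miR-96 and miR-182 stay below the dashed line.

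hsa-miR-183-3p had brightness values from 732 to 1756 over 19 spots, with a median of 1211. Its mean was 1236 ± 301 (SD over 19 spots), and all 20 spots on the array were well above background. The 4 probes gave similar levels. The probe means were 1471 ± 376, 1332 ± 166 and 930.2 ± 204 (SD, 5 spots per probe), and 1205 ± 14.4 (SD, 4 spots) for the probe with the outlier spot. On the log2 scale the outer probes differed by 0.65 (standard error 0.23 from the spots). Among the 1447 detected human miRNAs with more than 1 probe, the median of this difference was 0.36, and 503 had one at least as large as miR-183-3p. As a scale for the array, the 75th percentile over detected probes was taken, a brightness of 248.8. miR-183-3p was 4.83-fold above it, a log2 signal of 2.27.

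hsa-miR-183-5p gave brightness values from -1.29 to 52.7 over 20 spots, with a median of 15.3 and a mean of 18.1 ± 16.7 (SD over 20 spots). Of these spots 9 were well above background and 11 exceeded that limit of 12.5. The wide SD came from its 4 probes, which did not read alike. The brightest had 5 spots at 33.1, 35.6, 42.6, 47.6 and 52.7, all well above background. The next had spots from 16.3 to 24.9, of which 4 of 5 were well above background. Another had spots from 5.72 to 14.4, and none of them was well above background although all 5 were positive and significant. The last had spots from -1.29 to 1.59, which is no signal above the background that the software subtracted. Spots of these 4 probes did not overlap. The brightest probe was 3.04-fold above the dimmest detected probe of the array, which stands here as the upper limit for the probe without signal, so the probes differed by at least 3.04-fold. An exact size cannot be given, since it would rest on the value chosen for a probe without signal. For the same reason the level of miR-183-5p averaged over its probes depends on that choice. On the scale used for miR-183-3p, the log2 signal of its brightest probe was -2.58, and that of the average, with brightness below 1 set to 1, was -4.70.

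The arms of miR-183, which are cut from the same hairpin, were compared next. Their spots did not overlap. The dimmest spot of miR-183-3p was 13.9-fold brighter than the brightest spot of miR-183-5p, and the dimmest probe of miR-183-3p was 22.0-fold brighter than the brightest probe of miR-183-5p. The brightest probes of the 2 arms differed by 34.3-fold. An average over all probes of miR-183-5p includes a probe without signal, so the log2 difference of the averages, -6.97 for miR-183-5p minus miR-183-3p with brightness below 1 set to 1, is not a measured size. It was -5.93 without that probe. Different probes bind their targets to different degrees, so these are ratios of brightness, and the ratio of RNA amounts cannot be read from them.

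The software sums the probes it finds present into a total signal per miRNA. The total signal of miR-183-3p was 454.0 with an error of 23.3 as given by the software, and it was the sum of its 4 probes. That of miR-183-5p was 5.77 with an error of 0.656. It was the sum of its 2 brightest probes, and all 4 would have given 6.64. By total signal the 3p arm was 78.7-fold above the 5p arm. In the order of total signal over all 2549 human miRNAs, miR-183-3p held place 80, within the top 3.14%. miR-183-5p held place 1223, and 225 of the 1448 detected miRNAs (15.5%) were dimmer. By mean spot brightness miR-183-3p held place 78 and miR-183-5p place 1366, and after normexp correction 78 and 1206. The places by total signal are marked in the plot of total signal by order.

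**Figure D2:**
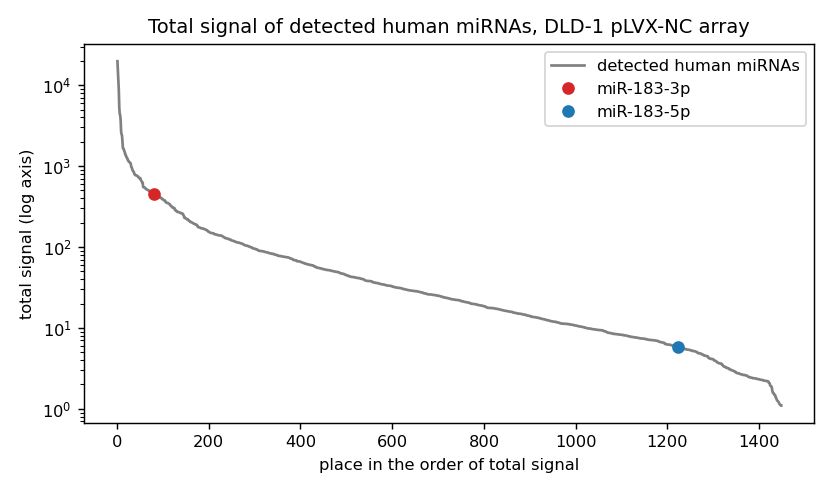
Total signal (y axis, log scale) of the 1448 detected human miRNAs by place in the order of total signal (x axis), as a grey line. miR-183-3p (red point) lies at place 80 with 454.0 and miR-183-5p (blue point) at place 1223 with 5.77; the other 4 members were not detected and have no place.

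The array held both arms of 810 human hairpins, and both were detected for 255 of them (31.5%). Among these 255 the 5p arm had the higher total signal for 167 and the 3p arm for 88 (34.5%). The log2 difference of the total signals, 5p minus 3p, had a median of 1.26, and its 5th and 95th percentiles were -4.68 and 5.91. For miR-183 it was -6.30, outside this range on the 3p side. Only miR-874, miR-1273g and miR-125a, which were named after their values were seen, had a larger excess of the 3p arm among the 255. The log2 differences of these hairpins were -8.22, -7.15 and -6.35 in that order. This order leaves out 144 hairpins in which the 3p arm alone was detected and 232 in which the 5p arm alone was. Their differences have no measured size. Among the 144 was miR-141, whose 3p arm had a total signal of 1112, above that of miR-183-3p. The 3p arms of miR-135a and miR-4446, also among the 144 and named after their values were seen, lay above it too, at 547.2 and 539.9. The place of miR-183 thus holds for hairpins with both arms detected alone. The plot of 3p against 5p total signal for the 255 hairpins shows miR-183 with miR-874, miR-1273g and miR-125a at the upper left.

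**Figure D3:**
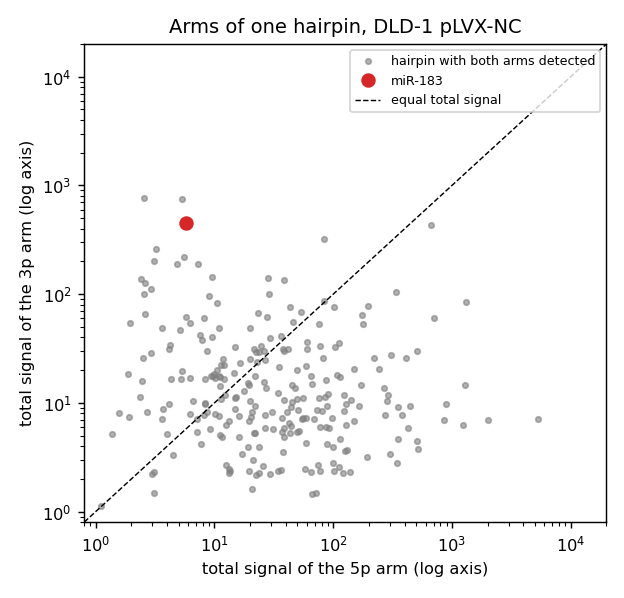
Total signal of the 3p arm (y axis) against that of the 5p arm (x axis), both on log scales, for the 255 human hairpins with both arms detected (grey points) and miR-183 among them (red point). The dashed line marks equal signals; miR-183 lies far above it, at 5.77 for the 5p arm and 454.0 for the 3p arm.

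The miR-96 arms were not detected. hsa-miR-96-5p, whose seed is the one tied to hearing loss, had spots from -4.37 to 1.26 with a median of -2.11 over 18 spots. hsa-miR-96-3p had spots from -3.93 to 2.85 with a median of -0.548 over 20 spots. None of the spots of either arm was well above background. With outlier spots included, 2 of the 20 spots of miR-96-5p and 0 of those of miR-96-3p were positive and significant over background. No fold between the arms can be given.

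The miR-182 arms were not detected either. hsa-miR-182-5p had spots from -4.49 to 3.46 with a median of -0.289 over 19 spots, and none was well above background. hsa-miR-182-3p had spots from -4.36 to 8.33 with a median of -0.230 over 19 spots. None was well above background, but 6 of its 20 spots were positive and significant over background. The brightest of its probes had a mean of 4.76 ± 2.22 (SD over 5 spots), with 3 of 5 spots positive and significant, and under that looser criterion miR-182-3p would count as detected too. The same criterion called 68.9% of all human miRNAs.

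Taken over the 4 undetected members, 76 spots had a median brightness of -0.696 and 0 exceeded that limit of 12.5. An outlier spot of miR-182-3p, left out here, had 13.2. Over the 1101 human miRNAs that were not detected the median was -0.531, and 1.11% of spots exceeded that level. The spots of miR-96 and miR-182 lay in the range of other undetected miRNAs. Both sets were picked by the same detection flag, so this likeness is no independent result. Signal at these levels was not detectable, which does not show that the miRNAs were absent. For 22.1% of the 810 hairpins neither arm was detected, as for miR-96 and miR-182.

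Between the hairpins of the cluster, miR-183-3p was at least 87.5-fold brighter than each arm of miR-96 and miR-182. For this the undetected arms were given the brightness of the dimmest detected probe, 13.7, in place of their own. For the guide arms the answer depended on the probe. The plain mean over the spots of miR-183-5p, 18.1, is above 13.7, while its average on the log2 scale, with brightness below 1 set to 1, corresponds to 9.58 and is below it. No fold over miR-96-5p or miR-182-5p is therefore given for the average. By its brightest probe it was at least 3.04-fold brighter than either. No order can be given between miR-96-5p and miR-182-5p, since neither was detected. The levels of the 3 guide arms were thus not resolved beyond 1 dim member and 2 undetected ones.

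Other miRNA clusters of the same array were set beside these guide arms. In 9 clusters with 25 different guide arms, among them miR-17-92, miR-106b-25, both miR-200 clusters and that of miR-221 and miR-222, 20 guide arms were detected, against 1 of 3 in the cluster of miR-183. Every guide arm was detected in 6 of the 9 clusters. The exceptions were miR-17-92 with 4 of 6 detected, the cluster of miR-191 and miR-425 with 1 of 2, and that of miR-192 and miR-194, which are intestinal epithelial miRNAs, with 0 of 2. The 20 detected guide arms had total signals from 4.86 to 1112 with a median of 26.1, and 19 of them were above the 5.77 of miR-183-5p. One of them, miR-141-3p, was above miR-183-3p. Over all human miRNAs on the array, 56.8% were detected, and 3 guide arms are too few to set apart from that share. The other clusters were chosen by name with earlier results of these data known. These counts describe 1 array, and no test of the difference was made.

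**Figure D4:**
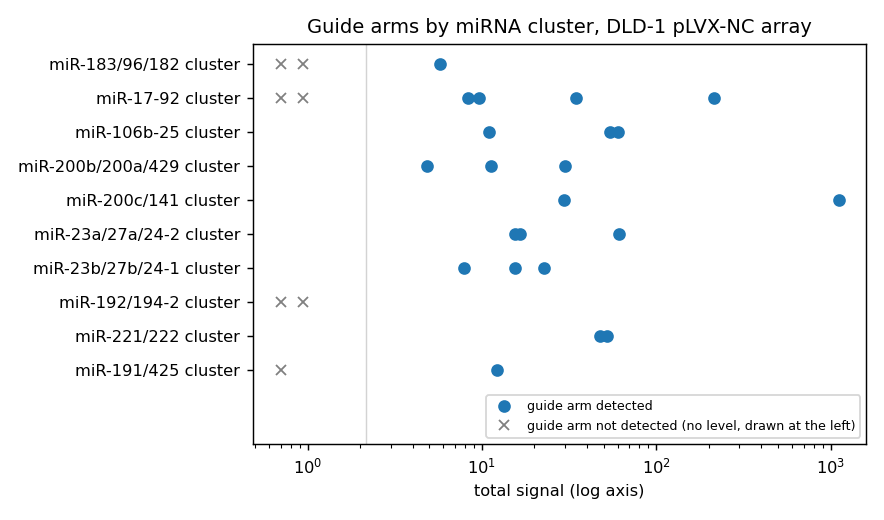
Total signal (x axis, log scale) of the guide arms of 10 miRNA clusters (rows); blue points are detected guide arms and grey crosses, left of the line, guide arms that were not detected and have no level. In the top row miR-183-5p stands alone at 5.77, with miR-96-5p and miR-182-5p as crosses. Of the 25 guide arms of the other clusters 20 were detected, and of all human miRNAs on the array 56.8%.

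A brighter arm opposite the guide was also found in other hairpins of the array. Of the guide arms in these clusters, 21 had an opposite arm of the same name on the array, and both arms were detected for 10 hairpins. For 5 of the 10 the opposite arm had the higher total signal. Among these 10 the highest such ratio was 3.29, for miR-200a (total signals of 4.86 for the guide and 16.0 for the opposite arm), against 78.7 for miR-183. The guide arm alone was detected in 6 of the 21 hairpins, and neither arm in 2. In the remaining 3 hairpins, named after their values were seen, the opposite arm alone was detected. Its total signal was 25.9 for miR-194, 11.6 for miR-191 and 7.48 for miR-18a. Against the lowest total signal of a detected human miRNA, 1.097, these were at least 23.6-fold, 10.6-fold and 6.82-fold above the guide arm, lower bounds that all exceed 3.29.

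Base composition differed little between the members. The GC content was 45.5% for miR-183-3p, 42.9% for miR-182-3p, 41.7% for miR-182-5p, 40.9% for miR-183-5p and miR-96-3p, and 39.1% for miR-96-5p. A mature sequence was found in RefSeq for 2248 of the 2549 human miRNAs (88.2%). Among these the median GC content was 56.5% for the 1279 that were detected and 45.5% for the 969 that were not. For the 100 brightest it was 60.9%, and 12 of them had a GC content at or below that of miR-183-3p. The bright arm of the cluster was therefore lower in GC than most of these 100, a set not matched to its own brightness. All 6 members lay at or below the median of undetected miRNAs.

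Runs of bases shared with other miRNAs were short. The longest run of bases common to miR-183-3p and any other human miRNA with a sequence was 9 of its 22 bases, with miR-3140-5p, which was not detected. For the other 5 members the longest common run was 8 to 10 bases. The seeds of miRNAs without a sequence in RefSeq could not be searched. Among the 2248 with one, 1 human miRNA outside the cluster carried the seed of a member. It was miR-1271-5p, with the seed of miR-96-5p, and its sequence is shown for comparison.
miR-1271-5p: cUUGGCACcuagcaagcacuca
miR-1271-5p was not detected. Its mean brightness was 2.35 ± 2.13 (SD over 20 spots), with 0 of 20 spots well above background. Neither of the 2 miRNAs found to carry the miR-96 seed was thus detected.

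Spots of miR-183-3p were dimmer toward the first columns of the array. Spots of a probe were scattered over the 164 columns and 384 rows, and the 7 spots of miR-183-3p in columns 1 to 40 ranged from 732 to 1095. The 12 in the other columns ranged from 1186 to 1756. The limit of 40 columns was set after these values were seen, so that the sets do not overlap is no test, and 4 of the 7 spots come from the dimmest probe. The spot left out as an outlier, at 894.9, was in column 3. In each of the 3 probes with spots on both sides, every spot in columns 1 to 40 was dimmer than every other spot. Taken as log2 deviations from the mean of the probe, the 2 sets differed by -0.35. The same was seen across the array. For 2326 human miRNA probes with every spot well above background, the median deviation was -0.13 in columns 1 to 40 and 0.03 in the other columns, a difference of -0.16. Without these columns the log2 signal of miR-183-3p was 2.41 in place of 2.27, and the difference between its outer probes 0.53 in place of 0.65.

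**Figure D5:**
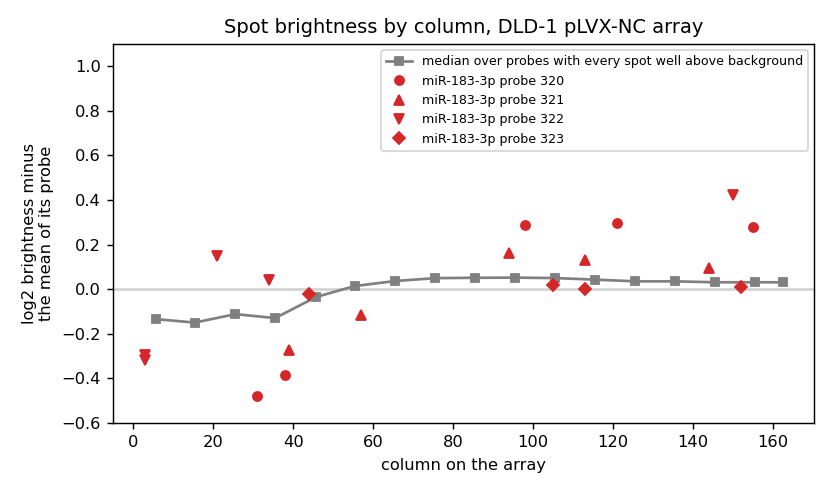
Log2 brightness of a spot minus the mean of its probe (y axis) by column on the array (x axis). Red symbols are the 19 spots of miR-183-3p, 1 shape per probe (named by the end of its identifier), and grey squares the median over 2326 human miRNA probes with every spot well above background, in blocks of 10 columns; the mean for miR-183-3p in columns 1 to 40 is -0.22 against 0.13 elsewhere, and the array-wide medians are -0.13 and 0.03.

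In the values deposited by the authors on a log2 scale, described as quantile normalized, miR-183-3p had 8.88 and miR-183-5p 2.47. Both are close to the log2 total signal of the same array, with differences of 0.05 and -0.06. The arms differed by 85.2-fold on this scale, near the 78.7-fold of the total signals. The 4 arms of miR-96 and miR-182 shared the lowest value of the table, 2.32, which is 5.0 on the linear scale. miR-183-5p, at 5.54 on that scale, was thus 0.15 above this lowest value on the log2 scale. The lowest value is shared and is no measured level of the undetected arms.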

How the data were processed

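miRNA was measured in 1 sample, DLD-1 cells with the negative control plasmid, assigned from its title. Per the file headers, intensity values come from an Agilent scan read by Feature Extraction 11.0.1.1, where background subtraction, outlier marks and detection flags were also made. The authors also deposited log2 values, quantile normalized in GeneSpring GX 12.1; the arrays normalized together are not named. The labels describe ligation of Cy3 to miRNA, the methods labelled double-stranded cDNA.

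Without outlier spots, and with 1 as the lowest brightness, the log2 brightness of each miRNA was averaged first within and then across its probes. From this was subtracted the 75th percentile of 2567 detected probes (0.5 or more of the spots well above background). The text names the 6 members, miRNAs with a member's seed, the miRNAs next to a detected guide arm in total signal, and, of other clusters, the brightest and dimmest guide arms; names added later are marked. Members and lists were chosen with earlier results of these data known. Alternatives covered background correction, scaling, probe summary, outliers and detection. The other background correction was normexp in limma 3.58.1 (R 4.3.3, offset 50), on median in place of mean signals and with the local background subtracted. The averaging was tested on simulated data, as a check of the calculation alone. That check does not bear on the average of miR-183-5p, which depends on the lowest brightness and on probes that did not read alike. Python 3.11.15, numpy 2.4.6, pandas 2.3.3 and matplotlib 3.10.9 were used. With 1 array there was no test between conditions and no p-value.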

Additional observations from a re-analysis of the deposited data

How the results depend on the processing

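Of 43 recomputed values under alternative settings, 24 stayed within the spread between spots (for counts and places, within 1.5 times) and none changed sign. The log2 signal of miR-183-3p, 2.27, was 4.06 with the percentile over all probes, 3.76 with the median of detected probes, 2.58 from the total signal and 3.02 from the deposited value. That of miR-183-5p, -4.70, was -2.003 after normexp correction, -2.58 for the brightest probe, -4.02 for the median spot and -3.72 from the total signal. It was -3.39 from the deposited value, -2.91 with the percentile over all probes, -3.21 with the median of detected probes and -3.66 without its probe at background (chosen after seeing the data). The difference between the arms of miR-183, -6.97 with brightness below 1 set to 1, was -4.04 after normexp correction, -5.10 for the brightest probes, -6.30 both for the median spot and from the total signal, -6.41 from the deposited values and -5.93 without that probe. The difference between the probes of miR-183-5p, 5.25 with the same limit and thus no measured size, was 0.74 after normexp correction. The normexp offset narrows ratios of dim spots by its construction, and the correction also began from another background, the local one. Otherwise the cause was not tested. The 2 detected members were 2 under 3 of the 4 other criteria, and 3 under the criterion of positive and significant spots. Since the arms of miR-96 and miR-182 were not detected, the settings chosen for differences that involve them gave no value. With neither arm detected, no arm difference was had for miR-96 or miR-182. Signal over background limits miR-183-5p, whose outcome depends on the probe. No paired analysis was possible because only the control array was used.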

Other observations

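In the order of total signal, miR-183-5p (5.77, error 0.656) stood between miR-6798-3p with 5.81 (error 0.905) and miR-6890-3p with 5.76 (error 1.06). These differences are smaller than the errors given by the software, so the place of miR-183-5p among its neighbours was not resolved.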
